A study of Mus musculus with 2 samples.

Results

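Mitochondrial ribosomal protein genes encode the proteins of the ribosome inside mitochondria, and in mouse nearly all of them carry the symbols Mrpl or Mrps followed by a number. The genes described here were all annotated genes with such a symbol and at least 1 protein-coding transcript in GENCODE M21, the annotation of the deposited tables. This rule found 78 genes, 49 named Mrpl and 29 named Mrps, among 55536 annotated genes of which 22028 were protein coding. They are called members below, and 5 pseudogenes with these symbols but no coding transcript were left out. The members lay on 17 chromosomes, with the most, 11, on chromosome 11, and no value of the libraries was used to choose them.

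The data came from bone-marrow-derived macrophages of C57BL/6J mice, primary phagocytes grown from marrow. Lipid A, the part of bacterial lipopolysaccharide that Toll-like receptor 4 senses, was given at 100 ng/ml for 12 h, removed for another 12 h, and given again at 100 ng/ml for 75 min. RNA of the chromatin fraction, which is rich in transcripts still attached to the template, was depleted of ribosomal RNA and sequenced. The study's samples were 2 libraries of this 1 group, replicate 1 from 250 ng and replicate 2 from 500 ng of starting RNA. The labels give both the same donor entry. Age and sex were not collected, and the labels leave unsaid whether the replicates came from separate cultures. Unexposed cells, cells exposed once and whole-cell RNA were not analysed here, so every value below is a level in restimulated cells and no effect of lipid A can be read from it. Errors are SDs between the 2 libraries, n = 2, and no test between conditions was possible. Where 2 values of a gene stand side by side without a label, they are those of replicate 1 and replicate 2. Levels and their order are those of the deposited alignment-based gene table unless the alignment-free program is named.

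The mitochondrial ribosome translates the few messenger RNAs of the mitochondrial genome, which encode subunits of the respiratory chain and the ATP synthase. Its ribosomal RNAs are made inside the organelle, while its proteins are encoded in the nucleus, made on cytosolic ribosomes and imported. Some of the proteins descend from bacterial ribosomal proteins, and others were added in the mitochondrial lineage. A large subunit joins amino acids and holds the exit tunnel, and a small subunit binds the messenger and decodes it. By assigned roles, 51 members belonged to the large subunit and 26 to the small subunit. The large subunit includes Mrps18a and Mrps30, which sit there in spite of their symbols. Mrps36 was not placed in either, since its product is known as a component of the 2-oxoglutarate dehydrogenase complex.

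The 2 libraries held 18388793 expected counts on annotated genes in replicate 1 and 17640464 in replicate 2. Macrophage identity was visible in all of 10 macrophage markers, which reached at least 1 TPM in both libraries with a median of 72.2 TPM. TPM is a transcript's share of the library, corrected for its length and scaled to a fixed sum, so that levels of genes can be compared. Summed levels of macrophage markers were 1280 TPM in replicate 1 and 913 TPM in replicate 2, and 3 of the 10 were at least 2-fold higher in replicate 1. Summed levels of T and NK cell, B cell, neutrophil, erythroid and fibroblast markers were at most 5.53 TPM in either library. At 0 in both libraries were 4 of 6 T and NK cell, 3 of 5 B cell, 4 of 6 neutrophil, 2 of 5 erythroid and 1 of 5 fibroblast markers. The part of these differences in the results was not tested. In such bulk samples, fewer cells of a type and less RNA per cell cannot be told apart.

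The members were detected broadly but at low levels in the chromatin fraction. All 78 had counts in both libraries, and 65 of 78 (83.3%) reached 1 TPM in both, against 40.1% of all protein-coding genes. Their median level was 3.09 ± 0.0672 TPM, against 7.98 ± 0.247 TPM over the 9615 protein-coding genes that reached 1 TPM in either library (expressed genes below). At a mean of 10 TPM or more were 9 members (11.5%), against 44.3% of expressed genes, and 64 members lay between 1 and 10 TPM. The quartiles of the members were 1.63 and 5.06 TPM, against 2.92 and 23.1 TPM for expressed genes. Cytosolic ribosomal protein genes, which encode the proteins of the other ribosome of the cell, had a median of 18.5 ± 1.33 TPM over 76 genes, and 84.2% of them reached 10 TPM. Rpl10, Rps9 and Rpl23 led them, with means of 92.2, 87.3 and 59.6 TPM, and Rps16 was lowest with 3.85 TPM. The members together held 7256 counts in replicate 1, or 0.0395% of its annotated counts (Wilson 95% interval 0.0386 to 0.0404%). In replicate 2 they held 6603 counts, or 0.0374% (0.0365 to 0.0383%). These intervals cover counting error only.

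**Figure D1:**
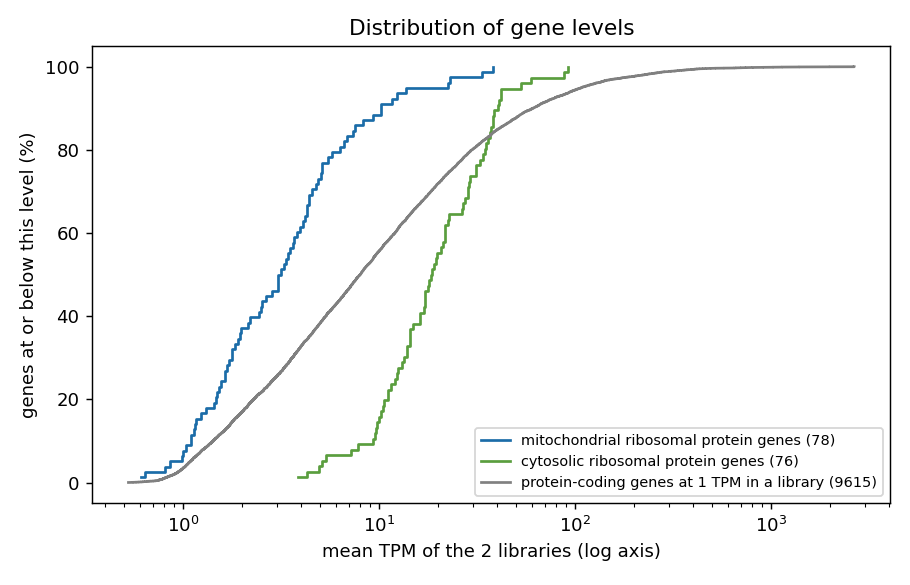
Cumulative share of genes (y axis, %) at or below each mean TPM of the 2 libraries (x axis, log scale) for mitochondrial ribosomal protein genes, cytosolic ribosomal protein genes and all protein-coding genes at 1 TPM in either library. The medians are 3.09 TPM for the 78 members, 18.5 TPM for the 76 cytosolic ribosomal protein genes and 7.98 TPM for the 9615 protein-coding genes.

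Few reads stood behind each member. The median of the members' mean counts was 50.3, against 242 for expressed genes, and 24 of 78 members (30.8%) had a mean of at least 100 counts. The members are short genes: their median span was 7899 bases, against 24227 bases for expressed genes, and their median exon number was 5 in the transcript with the most exons, against 10. Mrpl34 was the shortest, with 789 bases, and Mrps28 the longest, with 121773 bases.

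Levels ran over a 62.4-fold range, from 0.61 to 38.1 TPM in the mean. In the large subunit, Mrpl52, which encodes a protein with no bacterial counterpart, had 20.4 TPM in replicate 1 and 55.8 TPM in replicate 2. The libraries differed little in its counts, 129 and 139, and the gap in TPM around the mean of 38.1 ± 25.1 came from 1 count. That count of replicate 2 was assigned to the isoform Mrpl52-207, a retained-intron transcript of 134 bases whose effective length was 1.99 bases, and it gave 32.5 TPM. Without that isoform Mrpl52 had 20.4 TPM in replicate 1 and 23.3 TPM in replicate 2, near the levels of Mrpl3 and Mrps9. Mrpl24 encodes a protein at the rim of the exit tunnel and had 31.0 and 35.8 TPM (mean 33.4 ± 3.41). Mrpl3, whose product lies near the peptidyl transferase centre, had 25.8 and 19.3 TPM (mean 22.5 ± 4.54). Mrpl24 was above Mrpl3 in both libraries of this table. By the alignment-free program it had 29.8 TPM against 32.9 TPM of Mrpl3 in replicate 1, and 32.2 against 25.9 TPM in replicate 2, so the ranges then overlapped.

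Mrpl39, whose mitochondria-specific protein resembles a part of threonyl-tRNA synthetase, had 12.2 TPM in replicate 1 and 15.1 TPM in replicate 2. Mrpl33 had 11.5 and 8.93 TPM, and Mrpl37 had 9.42 and 9.17 TPM. Mrpl33 encodes a small protein with bacterial kin and Mrpl37 a mitochondria-specific one. The ranges of these 2 genes overlapped.

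In the small subunit, Mrps9 stood apart from the rest. It had 23.5 TPM in replicate 1 and 22.2 TPM in replicate 2 (mean 22.9 ± 0.955), from 572 and 469 counts, and the tail of its bacterial counterpart touches the bound transfer RNA. The next were Mrps18b with 11.0 and 13.7 TPM, Mrps5 with 9.24 and 14.0 TPM, Mrps18c with 12.2 and 8.27 TPM and Mrps15 with 6.06 and 8.95 TPM. Mrps5 belongs to the messenger entry of the small subunit, and Mrps15 binds the small-subunit ribosomal RNA. Mrps18c rested on 38 and 27 counts, and 66.1 and 57.4% of its TPM lay on 2 short retained-intron isoforms. The ranges of Mrps18b, Mrps5 and Mrps18c overlapped, so their order was not resolved, while Mrps9 was above each of them in both libraries.

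The bases just before the annotated starts of the highest members whose upstream stretch lies outside their own transcripts are shown for 1 gene of each subunit, 100 bases each, from RefSeq on GRCm38.p6, the assembly of mm10. Capitals mark matches to the short promoter motifs that are defined with the promoter results below. Mrpl52 lies on the plus strand at chr14:54426809-54426908 and holds 1 ETS match, on the other strand. Mrps9 lies on the plus strand at chr1:42851133-42851232 and holds 1 NFY match and, on the other strand, 1 SP1 match.
Mrpl52: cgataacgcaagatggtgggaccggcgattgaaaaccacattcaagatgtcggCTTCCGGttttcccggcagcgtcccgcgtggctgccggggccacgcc
Mrps9: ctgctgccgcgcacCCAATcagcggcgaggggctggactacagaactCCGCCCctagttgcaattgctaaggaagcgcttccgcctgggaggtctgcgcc

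**Figure D2:**
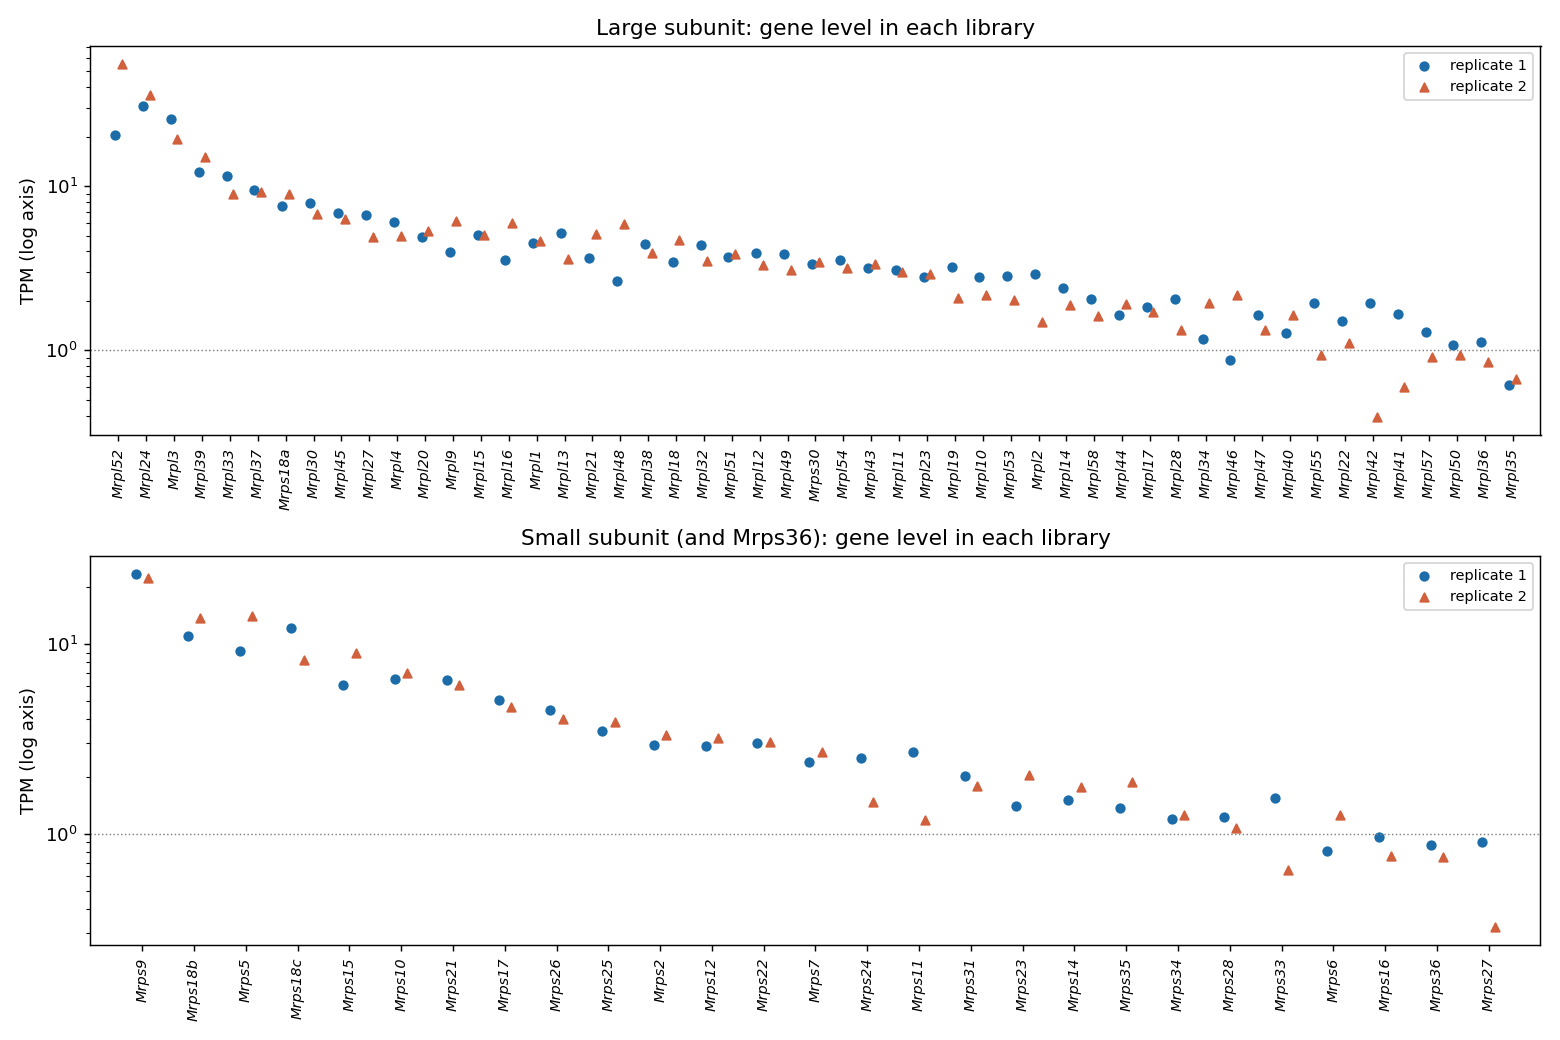
Level of each member in TPM (y axis, log scale; the dotted line marks 1 TPM) in replicate 1 (circles) and replicate 2 (triangles), ordered by mean TPM within the large subunit (upper panel) and within the small subunit with Mrps36 (lower panel). Most members lie between 1 and 10 TPM, Mrpl52 has 20.4 and 55.8 TPM, and 13 members fall under the line in at least 1 library.

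At the lower end, 13 members were under 1 TPM in at least 1 library, and 4 of them in both. This line depended on the measure: 73 of 78 members reached 1 TPM in both libraries by the alignment-free program. With TPM rescaled over protein-coding genes alone, all 78 did, but this rescaling raises every protein-coding gene of a library alike. The shares of all protein-coding genes under these measures were not computed. In the alignment-based table the order was as follows. The lowest was Mrps27, whose product belongs to the pentatricopeptide repeat family of RNA-binding proteins, with 0.90 TPM in replicate 1 and 0.32 TPM in replicate 2, from 24.65 and 8 counts. The lowest mean by the alignment-free program was that of Mrps34, with 0.735 TPM. Mrpl35 had 0.61 and 0.67 TPM, from 36 counts in each library. Mrps16 had 0.96 and 0.76 TPM, and both it and Mrpl35 encode proteins with bacterial kin. Mrps36, the gene not placed in a subunit, had 0.87 and 0.75 TPM from 4.68 and 4.94 counts, the fewest of any member in each library.

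The other 9 crossed 1 TPM in 1 library. Mrpl36 had 1.12 TPM in replicate 1 and 0.85 TPM in replicate 2, Mrpl50 had 1.07 and 0.93 TPM, and Mrpl57 had 1.29 and 0.91 TPM. Mrpl41 had 1.67 and 0.60 TPM, Mrpl42 had 1.93 and 0.39 TPM, and Mrpl55 had 1.95 and 0.93 TPM. These 6 belong to the large subunit and were higher in replicate 1, whereas Mrpl46, also of the large subunit, had 0.87 TPM in replicate 1 and 2.16 TPM in replicate 2. Among small-subunit genes Mrps33 had 1.54 and 0.64 TPM and Mrps6 had 0.81 and 1.26 TPM. Mrps28 closed the list of the 5 lowest small-subunit members with 1.22 and 1.07 TPM. Counts under 40 stood behind every one of these values, so a level near 1 TPM could not be told from its neighbours at this depth.

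The subunits had similar medians. It was 3.41 TPM over the means of the 51 large-subunit members, with medians of 3.35 TPM in replicate 1 and 3.33 TPM in replicate 2. Over the 26 small-subunit members it was 2.78 TPM, with medians of 2.81 and 2.87 TPM. The 45 members with bacterial kin had medians of 3.45 and 3.33 TPM in replicates 1 and 2, and the 32 mitochondria-specific members had 2.75 and 2.61 TPM. Mrps18a and Mrps18b are counted among the mitochondria-specific members and Mrps18c among those with bacterial kin, though all are paralogs of bacterial S18. With both moved to the bacterial kin, a grouping chosen after the data were seen, the medians were 3.55 and 3.52 TPM over 47 genes and 2.35 and 2.10 TPM over 30 genes. At least 1 TPM in both libraries was reached by 41 of 45 members with bacterial kin (91.1%) and by 24 of 32 mitochondria-specific members (75.0%). Within the small subunit the 16 genes with bacterial kin had 2.93 and 3.25 TPM and the 10 mitochondria-specific ones 1.77 and 1.96 TPM. Within the large subunit the medians were 3.55 and 3.52 TPM over 29 genes and 3.02 and 3.12 TPM over 22 genes. By the alignment-free program the medians of mean TPM were 5.67 TPM for bacterial kin and 4.51 TPM for mitochondria-specific members. The order turned within the large subunit, with 5.67 and 6.01 TPM, and held within the small subunit, with 5.62 and 3.89 TPM. The ranges of the single genes overlap widely.

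By place within the ribosome, the 3 genes of the stalk, which recruits translation factors, had close levels. Mrpl12 had 3.92 TPM in replicate 1 and 3.33 TPM in replicate 2, Mrpl11 had 3.07 and 2.99 TPM, and Mrpl10 had 2.81 and 2.16 TPM. Mrpl12, whose product also binds the mitochondrial RNA polymerase, was above the other two in both libraries. By the alignment-free program Mrpl10 was above it, with 6.00 and 5.02 TPM against 5.14 and 3.20 TPM of Mrpl12. The 6 genes of the exit tunnel rim, where new chains meet the inner membrane, had a median of 2.31 ± 0.0141 TPM and were spread over a 25.5-fold range. Mrpl24 was at its top, followed by Mrpl45 with 6.87 and 6.27 TPM, whose mitochondria-specific protein anchors the ribosome to that membrane. Mrpl23 had 2.80 and 2.90 TPM and Mrpl17 had 1.84 and 1.70 TPM. Mrpl47 had 1.64 and 1.32 TPM and Mrpl22 had 1.51 and 1.11 TPM.

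The 7 genes of the central protuberance, the knob of the large subunit that faces the small one, had medians of 2.66 TPM in replicate 1 and 3.93 TPM in replicate 2. Mrpl27 had the highest mean, with 6.63 and 4.88 TPM. By mean Mrpl48 followed with 2.66 and 5.91 TPM, then Mrpl38 with 4.47 and 3.93 TPM and Mrpl18 with 3.45 and 4.72 TPM. In replicate 2 Mrpl48 was above Mrpl27, so the libraries disagreed on the order. Mrpl58, whose product is a peptidyl-tRNA hydrolase built into the ribosome, had 2.04 and 1.62 TPM, and Mrpl40 had 1.28 and 1.64 TPM next to Mrpl46 given above. The 3 paralogs of the bacterial protein S18 were all high among members. Mrps18a had 7.62 and 8.96 TPM and, with Mrps18b and Mrps18c, gave a median of 10.2 ± 1.41 TPM. Each of the 3 exceeded the median of all members in both libraries. Most of the TPM of Mrps18c lay on the 2 short isoforms named above, which held few counts. By the alignment-free program Mrps18c had 13.5 and 16.1 TPM, with 27.4% on them.

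Part of the members' RNA was assigned to isoforms that keep an intron. The members had 343 annotated isoforms, of which 170 were protein coding, 88 retained intron, 61 processed transcripts and 24 targets of nonsense-mediated decay. Over the 73 members at a mean of 1 TPM, 43.4 ± 2.98% of TPM fell on retained-intron isoforms, against 37.8 ± 0.256% over protein-coding genes and 50.3 ± 1.76% over cytosolic ribosomal protein genes. Without Mrpl52, whose single count on a short isoform is described above, the members' share was 40.2 ± 0.142%. By expected counts, which are not divided by length, the shares were 41.5 and 41.3% of the members' counts in replicates 1 and 2, against 24.6 and 25.5% of those of protein-coding genes. The alignment-free program gave a lower pooled share to the members than to the background, 26.7% against 34.7%. The order of the pooled shares against the background thus held only in the alignment-based tables. By the alignment-free program, the coding isoform Mrpl20-202 and the processed transcript Mrpl48-203 had means of 59.2 and 53.3 TPM within the members' total. Their part in the lower share was not tested.

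A retained-intron isoform was annotated for 48 of the 73 members (65.8%), against 64.6% of protein-coding genes. It held over 50% of the gene's TPM in 26 of the 48 (54.2%), against 42.1% of protein-coding genes with such an isoform. The same shares were 21 of 48 (43.8%) and 42.3% by the alignment-free program. The median share per gene was 50.9%, from 8.25 to 94.7%, against 45.4%. Among members at a mean of 5 TPM, Mrps18b led with 75.6% in replicate 1 and 77.3% in replicate 2, and Mrps10 followed with 75.1 and 76.5%. Mrpl37 had 71.5 and 75.7%, Mrpl52 had 57.8 and 79.0%, Mrps5 had 67.5 and 74.4%, and Mrps9 had 64.0 and 71.5%. Mrps18c had 66.1 and 57.4%, and Mrps18a had 66.8 and 48.2%. The share of Mrpl52 in replicate 2 was 49.8% without its shortest isoform, and it was 33.8% over both libraries by the alignment-free program. That of Mrps18c rested on 2.03 and 4.18 counts in replicate 1 and 2.00 and 1.85 counts in replicate 2, on Mrps18c-204 and Mrps18c-205, and was 15.5% by counts and 27.4% by the alignment-free program.

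The lowest shares in the same set were those of Mrpl39 with 10.5% in replicate 1 and 6.42% in replicate 2, Mrpl30 with 26.4 and 19.7%, Mrpl9 with 14.8 and 35.3%, and Mrpl3 with 34.0 and 28.2%. Mrpl39 had 1 protein-coding and 1 retained-intron isoform, and the coding one, Mrpl39-201, held 380 and 450 of its counts. Below 5 TPM, Mrps26, picked after its values were seen, had the highest share of all members, 93.6 and 96.0%. Its retained-intron isoform Mrps26-201 had 57.7 and 48.9 counts over 1057 bases, and its coding isoform Mrps26-202 had 20.3 and 10.1 counts over 4278 bases. By counts the share of Mrps26 was 77.8%. By the alignment-free program it was 51.3%, under the 90.4% of Mrpl38 and the 89.1% of Mrpl42. Several members changed their share widely between libraries, among them Mrpl11 with 75.6 and 28.8%, Mrps35 with 73.7 and 29.4% and Mrpl54 with 68.7 and 22.9%, which were picked after their values were seen. Their counts were 31 and 34, 88 and 54, and 18 and 17.

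**Figure D3:**
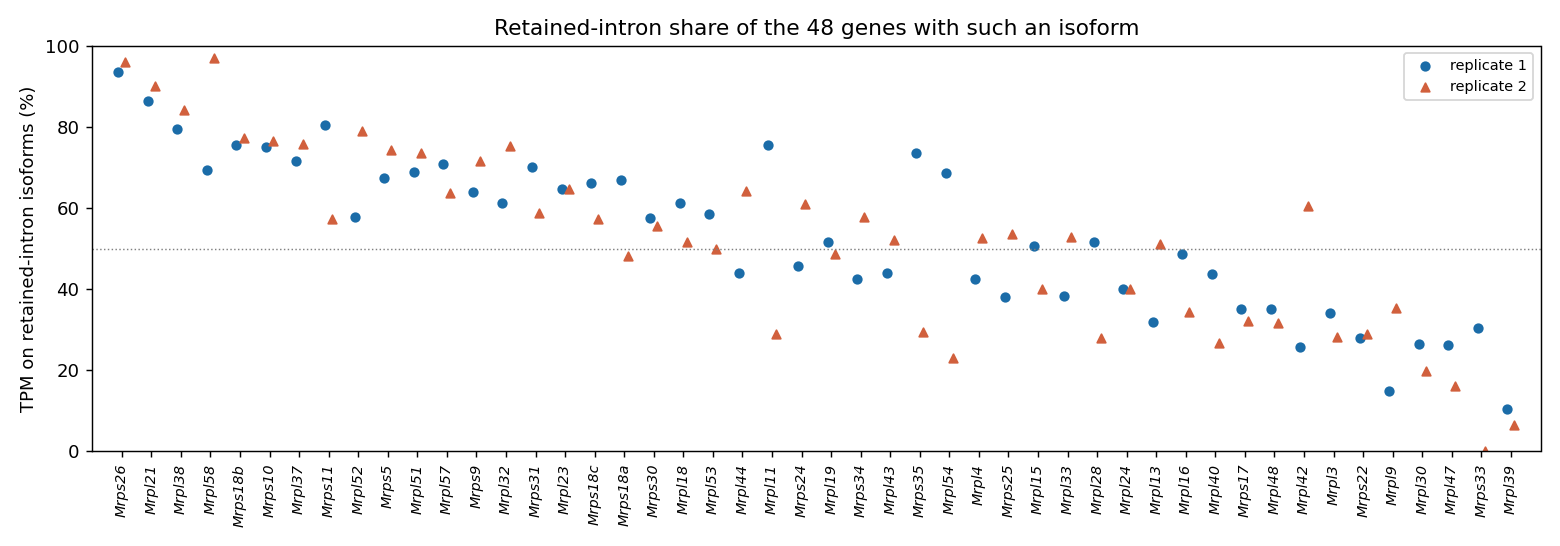
Share of each gene's TPM on retained-intron isoforms (y axis, %) in replicate 1 (circles) and replicate 2 (triangles) for the 48 members at a mean of 1 TPM with such an isoform, ordered by the share over both libraries; the dotted line marks 50%. Shares run from 94.7% in Mrps26 to 8.25% in Mrpl39, and pairs of points stand far apart in Mrpl11, Mrps35 and Mrpl54.

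The libraries gave similar orders of the members. Across the 78 genes the correlation between libraries was 0.934 (Pearson, on log2(TPM + 1)) and 0.915 (Spearman), against 0.968 and 0.961 across the 9615 expressed genes. These describe genes within 2 libraries, and genes are not independent replicates. The ratio of counts between libraries, given as the log2 ratio of replicate 1 over replicate 2 after scaling, had a median of 0.05 over the 68 members that had 10 counts or more in both libraries, against -0.00 over all genes. At least 2-fold apart were 7 of the 68 (10.3%), against 6.50% of protein-coding genes and 7.29% of all genes with as many counts. Of these, 5 were higher in replicate 1 (7.35%, against 3.28% of protein-coding genes and 3.20% of all genes) and 2 were lower (2.94%, against 3.23 and 4.09%). Among those with a mean under 100 counts the shares were 6 of 44 members (13.6%) and 10.8% of protein-coding genes, a set chosen after the data were seen. The order against the background turned with the settings. At least 1.5-fold apart were 8 of 68 members (11.8%), against 22.3% of protein-coding genes. With no minimum and 0.5 added to each count, 7 of 78 (8.97%) were 2-fold apart, against 3029 of 14395 protein-coding genes. They were not the same 7 genes as in the main call. Mrpl55 and Mrps27, which had 8 counts each in replicate 2, came in, and Mrpl2 and Mrps24 fell just under the limit. At a minimum of 50 counts per library 1 of 36 (2.78%) was 2-fold apart, against 3.84%, and by alignment-free counts 2 of 78 (2.56%), against 4.26%.

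The 5 higher ones were Mrpl42 with 36 counts in replicate 1 and 12 in replicate 2 (log2 ratio 1.45), Mrps11 with 32 and 12 (1.28), Mrpl58 with 26 and 10 (1.25), Mrpl2 with 29 and 13 (1.02) and Mrps24 with 22 and 10 (1.00). The 2 lower ones were Mrpl46 with 13 and 29 counts (-1.29) and Mrpl48 with 70.53 and 132.2 counts (-1.03). The nearest member that did not reach 2-fold was Mrps6, with 10 and 17.01 counts (-0.90). Exact binomial 95% intervals of the ratio, which cover counting error only, left out 0 for 13 of the 68 members. The same share was not computed over all genes, so 13 cannot be called many or few. Among the 13 were 6 of the 7, the exception being Mrps24 with an interval of -0.13 to 2.25. The 7 were picked from the same counts, so their intervals are no separate support. With at least 50 counts in each library only Mrpl48 of 36 members was 2-fold apart, and by the alignment-free program it had 949.4 and 980.7 counts (-0.14). By that program 0 of the 7 reached 2-fold. Mrpl58 came nearest and stayed higher in replicate 1, with 49 and 23 counts (1.0 after rounding, just under the limit). The members that did reach 2-fold by that program were Mrpl54 with 64 and 128 counts (-1.09) and Mrpl57 with 399.9 and 1001 counts (-1.42), named after their values were seen. Mrps11 and Mrpl46, which differed in opposite directions, overlap on opposite strands. Their summed counts were 45 in replicate 1 and 41 in replicate 2. The deposited posterior SD, which grows where reads could belong to several genes, was 0.4 counts in replicate 1 and 0 in replicate 2 for each. Whether the counting used strand is not stated in the sources at hand, and the part of the overlap in these counts was not tested.

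**Figure D4:**
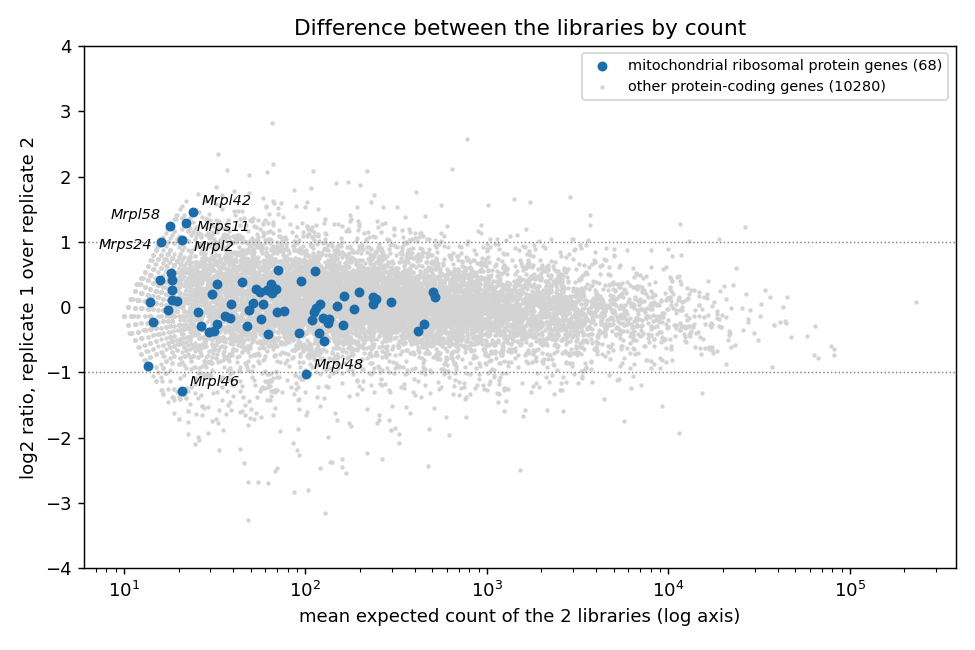
Log2 ratio of replicate 1 over replicate 2 (y axis) against the mean expected count of the libraries (x axis, log scale) for 68 members (blue) and the other protein-coding genes with 10 counts or more in both libraries (grey); dotted lines mark 2-fold. The 7 named members lie at or beyond the lines, all but Mrpl48 at fewer than 50 counts in each library.

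The second set of deposited values, made from the reads without an alignment, moved many members upward. The level of 26 of 78 members (33.3%) was at least 2-fold higher there, against 35.1% of protein-coding genes at 1 TPM by either program, and 0 of 78 were 2-fold lower, against 0.251%. The median log2 ratio of the alignment-free over the alignment-based level was 0.54 for the members and 0.36 for expressed genes, and 65 of the 78 were higher. Between programs Pearson's r of log2(TPM + 1) was 0.756 across the members and 0.940 across expressed genes. These are 2 quantifications of the same reads and no replicates.

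Mrpl48 and Mrpl20 differed most. Mrpl48 had 59.4 TPM in the alignment-free mean and 4.29 TPM in the alignment-based mean, and 765 and 646 of its alignment-free counts fell on Mrpl48-203, a processed transcript of 706 bases that held 2 and 17 alignment-based counts. Mrpl20, whose bacterial kin takes part in early assembly of the large subunit, had 67.0 against 5.12 TPM. Its short coding isoform Mrpl20-202 held 309 and 448 alignment-free counts, against 2.25 and 0 alignment-based counts.

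Mrpl35 had 7.86 against 0.64 TPM, with 687 and 737 against 36 and 36 counts on its coding isoform Mrpl35-201, so its place among the lowest members held for 1 program only. Mrpl57 had 10.3 against 1.10 TPM and Mrpl42 had 8.05 against 1.16 TPM. In Mrpl42 the difference lay on the retained-intron isoform Mrpl42-204, with 640 and 536 against 25.7 and 11.0 counts. Mrpl2 had 13.3 against 2.20 TPM, Mrpl41 had 5.97 against 1.14 TPM and Mrpl27 had 19.0 against 5.75 TPM. Among the high members, Mrpl24 had 31.0 against 33.4 TPM and Mrps9 had 22.2 against 22.9 TPM, while Mrpl3 had 29.4 against 22.5 TPM and Mrpl39 had 19.9 against 13.6 TPM. Mrpl52 had 35.6 against 38.1 TPM, but without its shortest isoform the alignment-based levels were 20.4 and 23.3 TPM. Its counts were 306 and 278 by the alignment-free program, against 129 and 139. The deposited posterior SD of the gene count, which grows where reads could belong to several genes, was 0 in both libraries for 52 members. It was over 10% of the count for 3, Mrpl53, Mrps34 and Mrps36. The same shares over all genes were not computed, and this SD does not score the assignment among isoforms.

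**Figure D5:**
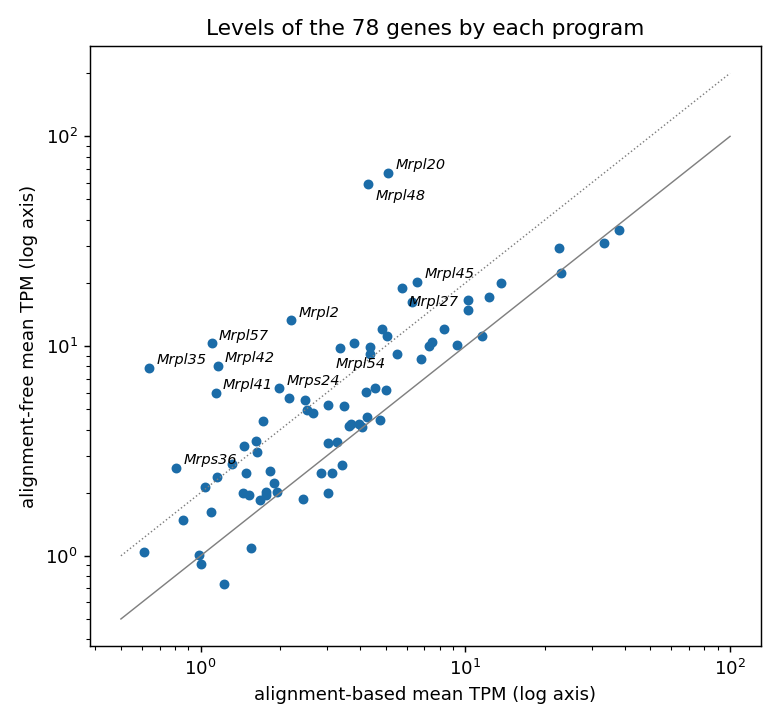
Mean TPM of each of the 78 members by the alignment-free program (y axis, log scale) against the alignment-based program (x axis, log scale), with lines at equal levels (solid) and at 2-fold higher alignment-free levels (dotted). Mrpl20 and Mrpl48 stand farthest above the lines, with 67.0 and 59.4 TPM against 5.12 and 4.29 TPM, and Mrpl24 and Mrps9 lie near the solid line.

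Close starts on opposite strands were more common among members than among expressed genes. For 18 of 78 (23.1%), a protein-coding gene started within 1000 bases upstream on the opposite strand, against 11.1% of expressed genes. The distances between starts ran from 26 to 935 bases with a median of 82, and 16 of the 18 were within 200 bases. The member had the higher mean level in 9 pairs and the neighbour in 9. Overlap with a gene on the opposite strand was no more common among members, 36 of 78 (46.2%), than among expressed genes (46.0%).

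Some neighbours serve mitochondria or ribosomes themselves. Mrps12, which encodes a protein of the decoding centre, had 2.91 TPM in replicate 1 and 3.18 TPM in replicate 2 and started 172 bases from Sars2, the mitochondrial seryl-tRNA synthetase, which had 2.66 and 2.52 TPM. Mrps27 started 81 bases from Ptcd2, a mitochondrial pentatricopeptide repeat protein, which had 1.25 and 1.32 TPM. Mrpl49 had 3.87 and 3.10 TPM and started 59 bases from Fau, a precursor of a cytosolic ribosomal protein, which had 23.9 and 29.7 TPM.

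Other pairs were uneven. Mrps18b was 45 bases from Ppp1r10, a regulatory subunit of protein phosphatase, which had 39.8 and 46.5 TPM, above the 11.0 and 13.7 TPM of Mrps18b. Mrps18c was 29 bases from Helq, a DNA helicase, which had 2.09 and 1.14 TPM, under the 12.2 and 8.27 TPM of Mrps18c. Mrpl10 was 153 bases from Lrrc46, which had 0 counts in both libraries. Mrpl32, whose product must be cut by a protease before assembly, had 4.39 and 3.52 TPM and was 75 bases from Psma2, a proteasome subunit, which had 4.94 and 5.14 TPM.

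The full stretches between both starts are shown for 4 of these pairs, chosen to show the ETS and NRF1 motifs between close starts and, in Mrps12 and Sars2, a pair whose products both serve mitochondrial translation. They come from the same RefSeq table, on the strand of the member, with capitals as above. Mrps27 to Ptcd2 is chr13:99344706-99344785 on the plus strand and holds an ETS match. Mrps18c to Helq is chr5:100798599-100798626 on the plus strand and holds an ETS match. Mrpl10 to Lrrc46 is chr11:97041408-97041559 on the plus strand and holds an NRF1 match. Mrps12 to Sars2 is chr7:28741821-28741991 on the minus strand and holds NFY and SP1 matches.
Mrps27-Ptcd2: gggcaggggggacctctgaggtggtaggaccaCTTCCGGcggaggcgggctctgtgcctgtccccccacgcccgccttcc
Mrps18c-Helq: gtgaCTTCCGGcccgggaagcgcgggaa
Mrpl10-Lrrc46: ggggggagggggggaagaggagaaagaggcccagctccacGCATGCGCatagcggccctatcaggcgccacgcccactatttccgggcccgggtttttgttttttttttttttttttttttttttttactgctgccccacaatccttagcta
Mrps12-Sars2: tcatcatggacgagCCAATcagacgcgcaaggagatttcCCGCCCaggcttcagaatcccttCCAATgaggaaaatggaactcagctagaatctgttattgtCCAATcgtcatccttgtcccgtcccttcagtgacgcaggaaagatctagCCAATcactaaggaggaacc

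Promoters of the members were searched from 250 bases before to 50 bases after the RefSeq start, on both strands. Of the 78 members, 69 matched a RefSeq entry, with 75 promoters, among 27025 genes and 32851 promoters. The motifs were CCGGAAG for ETS factors such as GABPA, GCGCATGC for NRF1, AAGATGGC for YY1, GGGCGG for SP1, CCAAT for NFY and TATAAA for the TATA box. None of these letters holds another, but matches may overlap. NRF1 and GABPA are known as regulators of nuclear genes for mitochondria, and YY1 sites often lie at or just after starts. A match is a description of letters and says nothing of binding.

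CCGGAAG was found in 26 of 69 members (37.7%), against 9.93% of all genes of the table and 23.1% of the 7667 expressed genes in it. GCGCATGC was found in 8 (11.6%), against 3.05% and 6.46%, and AAGATGGC in 12 (17.4%), against 3.19% and 6.17%. At least 1 of the ETS and NRF1 motifs was found in 30 members (43.5%), against 12.4% and 27.9%. For GGGCGG the background decided the direction, with 49.3% of members, 38.2% of all genes and 69.2% of expressed genes. CCAAT was found in 39.1% of members, against 41.1% of all and 42.5% of expressed genes, and TATAAA in 7.25%, against 15.7% and 8.66%. The median GC content was 58.0% for members, 52.8% for all genes and 60.7% for expressed genes.

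The members with an NRF1 match were Mrpl9, Mrpl10, Mrpl17, Mrpl22, Mrpl32, Mrpl33, Mrpl39 and Mrps18b, and in all 8 a match lay before the start. The YY1 motif was placed differently, with 8 of its 12 members holding it in the 50 bases after the start (11.6% of members, against 1.35% of all genes). Those 12 were Mrpl32, Mrpl35, Mrpl36, Mrpl37, Mrpl42, Mrpl49, Mrps7, Mrps11, Mrps12, Mrps18a, Mrps24 and Mrps27. The median level of members was 3.54 TPM with an ETS match and 2.85 TPM without, 4.52 TPM with an NRF1 match and 3.03 TPM without, and 2.25 TPM with a YY1 match and 3.27 TPM without. All 3 S18 paralogs held an ETS match.

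Genes that work with the members were set beside them from lists chosen with earlier results of these data known. Among 5 mitoribosome proteins under other symbols, Dap3, a GTP-binding protein of the small subunit, had 55.3 TPM in replicate 1 and 58.4 TPM in replicate 2, above every member's mean in this table. Dap3 had a mean of 59.5 TPM by the alignment-free program, under the 67.0 TPM of Mrpl20 and close to the 59.4 TPM of Mrpl48. Ptcd3, another pentatricopeptide repeat protein of the small subunit, had 20.2 and 16.2 TPM. Chchd1 had 5.76 and 9.40 TPM, and Gadd45gip1, at the exit of the large subunit, had the lowest level with 1.03 and 1.06 TPM. After depletion of ribosomal RNA, the small-subunit ribosomal RNA mt-Rnr1 kept 182 counts in replicate 1 and 344 in replicate 2 (log2 ratio -1.05), and the large-subunit mt-Rnr2 kept 229 and 240 (-0.20).

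Mitochondrial translation factors had a median of 4.59 ± 0.255 TPM over 11 genes. Gfm2, a factor of ribosome recycling, was highest with 23.0 and 18.5 TPM, then Gfm1, an elongation factor, with a mean of 8.07 ± 0.0919 TPM and Mtif2, an initiation factor, with 9.43 and 6.07 TPM. The release factor Mtrf1 was lowest with 0.96 and 0.41 TPM. The 24 genes of assembly and ribosomal RNA modification had a median of 3.22 ± 0.453 TPM, close to the 3.09 ± 0.0672 TPM of the members. Dhx30, an RNA helicase of mitochondrial ribosome assembly, had 27.8 and 14.9 TPM, Mterf3 had 22.7 and 19.5 TPM and Malsu1 had 16.9 and 20.4 TPM, while Mettl15, a methyltransferase of the small-subunit ribosomal RNA, had 0.39 and 0.31 TPM. At least 2-fold apart between libraries was 1 gene of each of these lists, Mtrf1 among the 11 factors (log2 ratio 1.25) and Trmt2b among the 21 assembly genes with enough counts (1.15), both higher in replicate 1.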

How the data were processed

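The deposited expected counts and TPM values per gene and per transcript were made by the authors from alignments to the mm10 transcriptome with GENCODE M21, per the submitters' description files. Their columns carry the names that RSEM writes, per the file headers. A second transcript table with deposited estimated counts and TPM was quantified straight from the reads, and its columns are named as in kallisto output, per the file headers. The sources used here name no program version and no strand setting. How uncertain the assignment of reads to a gene was is scored by the posterior SD of each gene's count that the authors deposited. Assignment among the isoforms of a gene was not scored here.

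Main values are from the alignment-based gene table. Entries without gene names, spike-ins included, were left out (0.305% of counts in replicate 1 and 0.262% in replicate 2). List levels are medians of mean TPM, with the SD between library medians. Ratios used expected counts rounded to whole numbers, scaled by TMM (edgeR 4.0.16, R 4.3.3) over the whole table, where both libraries had 10 counts or more; with 1 group no test was run. The step was run on simulated counts that held counting error only and in which only genes with high counts were changed. That run does not cover 2-fold calls at the low counts of most members. Isoform classes are those of the annotation.

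Members were taken by the symbol rule, which used no value of the libraries, but they and the lists were chosen with earlier results of these data known. Genes named are the 6 highest and 6 lowest of the large and the 5 and 5 of the small subunit, those under 1 TPM in a library or 2-fold apart, the extremes of retained-intron share and of the difference between programs, members of the place lists, and the 3 highest and the lowest of other lists. The 2-fold call was replaced by other count minimums and scalings, and levels by the other program.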

Additional observations from a re-analysis of the deposited data

How the results depend on the processing

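Of 62 alternatives computed, 41 left the value within its spread or limits, 20 moved it and 1, the excess of SP1 motifs, reversed it. Apart from the motifs, this tally follows the members' own values and does not count turns in their order against the background. Among such turns were the 2-fold share with the lower fold limit and with no count minimum, as given above. Others are named below for higher counts, alignment-free counts and the retained-intron share. The median level of members was 5.06 TPM by the alignment-free program (11.8 TPM for expressed genes), 11.5 TPM with TPM rescaled over protein-coding genes alone (29.7 TPM) and 3.56 TPM over members with at least 10 counts in each library. In the same order it was 5.97, 12.6 and 3.80 TPM for the large subunit and 4.33, 10.3 and 3.04 TPM for the small subunit. Leaving out 1 replicate gave 3.33 to 3.35 TPM for the large subunit and 2.81 to 2.87 TPM for the small subunit. Members 2-fold apart between libraries numbered 1 of 36 (background 3.84%) with at least 50 counts in each library and 2 of 78 (4.26%) by alignment-free counts, where fewer genes or other counts entered, and in both the members were under the background. The retained-intron share was 26.7% by the alignment-free program, under its background of 34.7%, and 40.2% without Mrpl52, an alternative chosen after seeing the data. Against expressed genes the excess of members with a motif was 14.6 percentage points for ETS, 15.6 for ETS or NRF1 and, with the sign turned, -19.9 for SP1. Bacterial kin lay 0.897 TPM above mitochondria-specific members in the median, 1.79 TPM with Mrps18a and Mrps18b moved to them and 1.17 TPM by the alignment-free program, both chosen after seeing the data. The cause of these shifts was not tested.

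No paired analysis was possible because the libraries form 1 group. Features of the proteins were planned and not analysed here. With a median of 50.3 counts per member, depth limits the order of low members and every isoform share, and 2 libraries give each SD a single degree of freedom.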
